A study of Mus musculus with 24 samples.

Results

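Mid-size TCRβ clonotypes, which lie just below the dominant clones of a tumor, were followed between the 2 tumors of each of 12 mice. A clonotype was a T cell receptor β chain defined by its CDR3 amino acid sequence, V segment and J segment, and its share was its percentage of the counts retained in the library of a tumor. Members were selected in each mouse by the larger of their 2 shares, from 0.1% to below 1%, which gave 798 of 51184 clonotypes. By the same measure 210 clonotypes were dominant (1% or more) and 11096 were small (0.01% to below 0.1%). Because the shares chose the members, their number and their summed shares are given as a description and were not tested.

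Female BALB/c mice, 7 to 9 weeks old when obtained, carried subcutaneous tumors of CT26.CL25 cells, a mouse colon carcinoma line referred to as CT26, in both flanks. In the time-matched group (mice 6, 12 and 14) both tumors were taken at the same time, 13 days after inoculation. In the time-separated group (mice 4, 17 and 19) 1 tumor was removed by surgery, under anesthesia and with the analgesics carprofen and buprenorphine, and the remaining tumor was taken 11 days later, with no decitabine given. No surgery is described for the time-matched mice, so surgery with its anesthesia and analgesia, the interval between tumors and the tumors' age cannot be told apart between these groups. In the 0.5 mg/kg DAC group (mice 3, 11 and 20) and the 2 mg/kg DAC group (mice 7, 10 and 16) the same schedule was kept. Decitabine, an inhibitor of DNA methyltransferases, was given into the peritoneum on 5 consecutive days beginning 3 days after surgery. The remaining tumor was taken 4 days after the last dose. Below, the 9 mice of these 3 groups are together called the time-separated mice, and mice 4, 17 and 19 the untreated ones. Where the 9 are set against the time-matched mice, decitabine is a further difference that cannot be told apart. Tumors carry the numbers 1 and 2 in the labels, which do not say which was taken first, so a ratio between tumor 2 and tumor 1 has no direction in time here. RNA came from whole tumors, with no sorting of T cells, and fewer cells of a clone and less receptor RNA per cell cannot be told apart. The mouse was the replicate, with 3 mice in each group and 1 library per tumor.

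Each developing T cell joins 1 V, 1 D and 1 J segment of the TCRβ locus, and the joint, with bases trimmed and added at random, encodes the CDR3 loop that contacts the peptide held by an MHC molecule. A T cell that meets its antigen divides, and its progeny carry the same CDR3, so the share of a CDR3 in a tumor follows the size of its clone and how much receptor RNA its cells hold. Receptors with short joints are made often enough to arise in different individuals, and such receptors are called public. Different nucleotide sequences can encode the same public CDR3, which is known as convergent recombination.

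Retained counts ranged from 63291 to 887567 per library. The time-matched libraries held 375898 to 610800 counts, those of the untreated time-separated mice 97815 to 207072, those of the 0.5 mg/kg DAC group 63291 to 199081 and those of the 2 mg/kg DAC group 64192 to 887567. The limit for a clonotype listed at 0 was taken as the share of 3 counts, 0.000338% in the deepest library and 0.00474% in the shallowest, which lies below the 0.1% at which members began. Intervals and these limits cover counting error only. Depth differed between the groups, so the comparisons of change were also made after every library had been thinned to 63291 counts.

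The CDR3 sequences that the results turn on are shown 5′ to 3′, with capitals for the bases between the stretch shared with the usual start of the V segment and the stretch shared with the usual end of the J segment. The first is the receptor that was mid-size in the most mice, and all 7 of those mice had the same main nucleotide sequence. The next pair are the members whose share differed most and least between tumors, among those with 3 or more counts in both.
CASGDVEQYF, TRBV13-2 with TRBJ2-7: tgtgccagcggtgaTGTtgaacagtacttc
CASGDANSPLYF, TRBV13-2 with TRBJ1-6, mouse 14: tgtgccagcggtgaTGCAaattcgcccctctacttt
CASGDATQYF, TRBV13-2 with TRBJ2-5, mouse 16: tgtgccagcggtgaTGCcacccagtacttt
The next 5 encode a single receptor of 15 residues with TRBV19 and TRBJ2-1, each from a different mouse, and are shown because its mice held it with 5 different main nucleotide sequences.
TRBV19 with TRBJ2-1, mouse 3: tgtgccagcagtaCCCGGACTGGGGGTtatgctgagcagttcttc
TRBV19 with TRBJ2-1, mouse 6: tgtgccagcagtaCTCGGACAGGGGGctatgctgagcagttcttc
TRBV19 with TRBJ2-1, mouse 10: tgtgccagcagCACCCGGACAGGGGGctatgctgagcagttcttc
TRBV19 with TRBJ2-1, mouse 11: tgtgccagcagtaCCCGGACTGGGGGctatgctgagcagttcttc
TRBV19 with TRBJ2-1, mouse 19: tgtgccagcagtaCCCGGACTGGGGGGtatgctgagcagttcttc
The last 3 encode a related receptor, which differed from it at 2 of 15 residues.
TRBV19 with TRBJ2-1, mice 12 and 20: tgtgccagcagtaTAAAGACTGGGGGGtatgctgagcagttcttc
TRBV19 with TRBJ2-1, mouse 11: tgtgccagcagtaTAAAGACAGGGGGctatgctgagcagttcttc
TRBV19 with TRBJ2-1, mouse 17: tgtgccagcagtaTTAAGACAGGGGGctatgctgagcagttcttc

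Time-matched mice held fewer mid-size clonotypes than most other mice. There were 46, 22 and 29 in mice 6, 12 and 14, and 103, 71 and 115 in the untreated time-separated mice 4, 17 and 19. The 0.5 mg/kg DAC mice 3, 11 and 20 had 76, 79 and 85, and the 2 mg/kg DAC mice 7, 10 and 16 had 49, 89 and 34. Together the members of a mouse made up between 4.71% and 22.6% of a tumor's counts, with a median of 12.1% over the 24 tumors, against a median of 73.3% for the dominant clonotypes. The highest value was in mouse 19, where the members summed to 22.6% in tumor 1 and 5.60% in tumor 2, and the dominant clonotypes to 31.5% and 82.3%. The median larger share of a member was close to the lower limit in every mouse, from 0.152% to 0.255%. At the limits, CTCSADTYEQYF (TRBV1 with TRBJ2-7, mouse 4) lay just inside at 0.100108% and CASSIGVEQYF (TRBV17 with TRBJ2-7, mouse 12) just outside at 0.0999832%. At the upper limit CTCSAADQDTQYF (TRBV1 with TRBJ2-5, mouse 19) lay inside at 0.981% and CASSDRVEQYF (TRBV17 with TRBJ2-7, mouse 19) outside at 1.00087%.

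**Figure D1:**
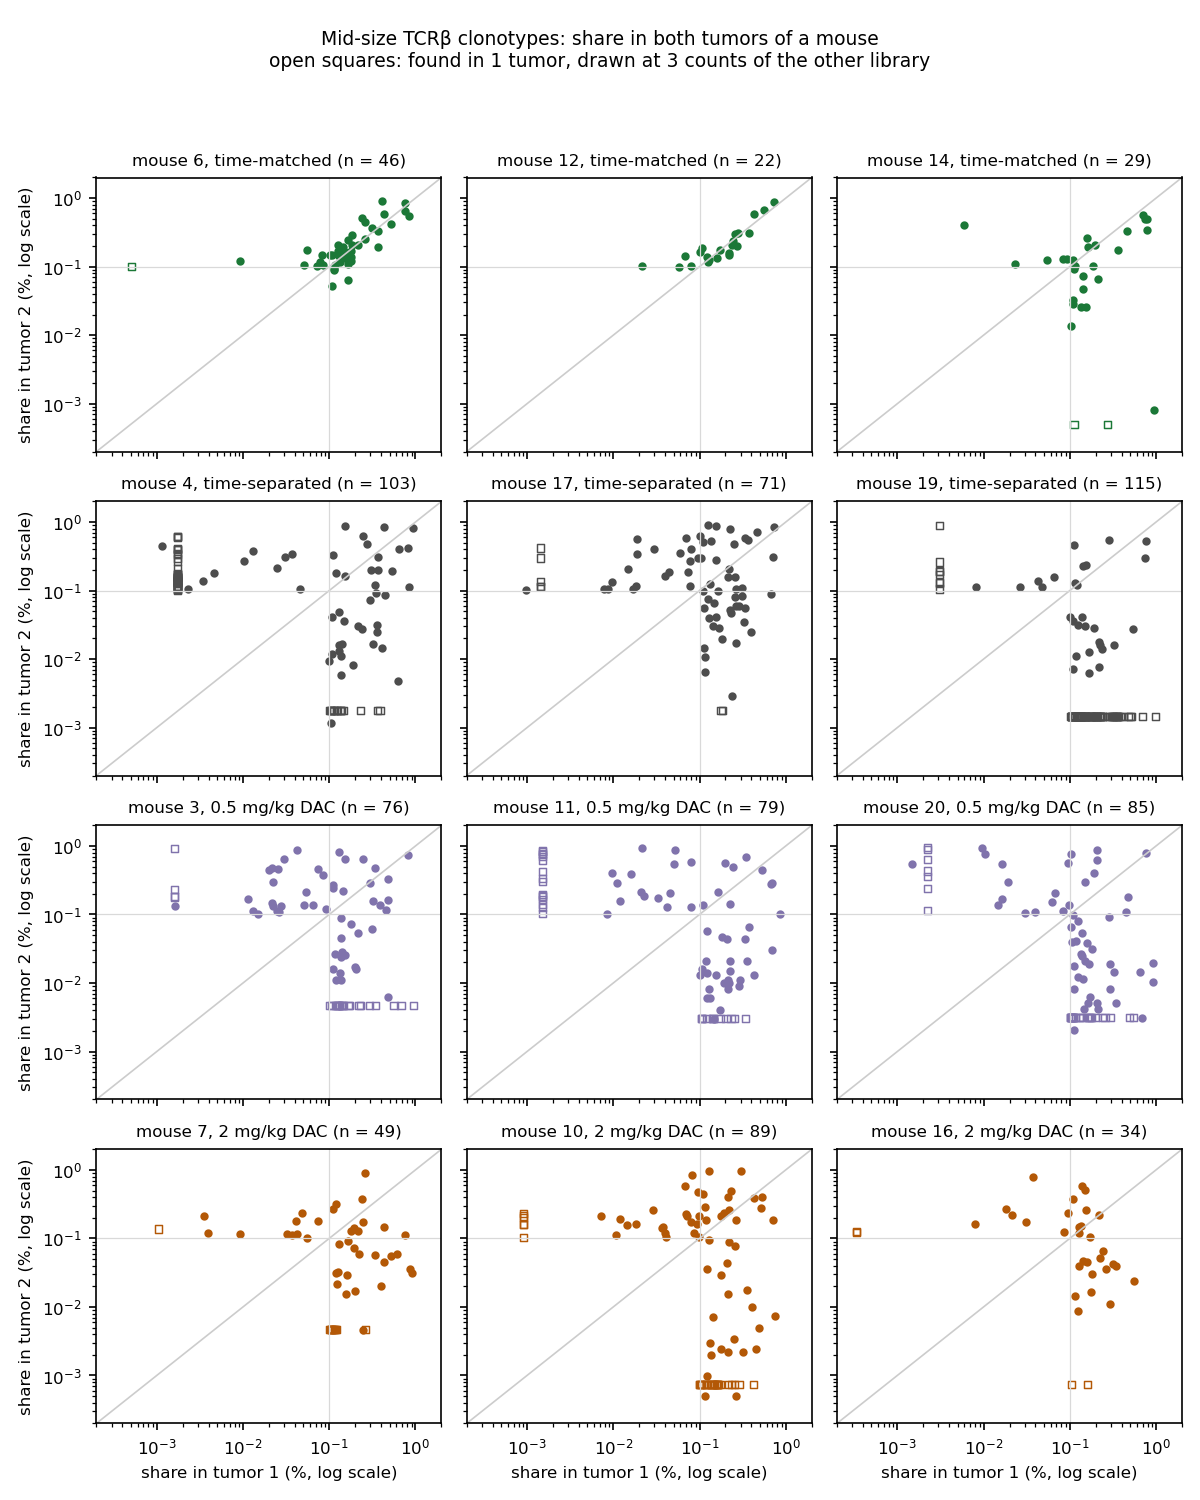
Share of each mid-size clonotype in tumor 1 (horizontal) and tumor 2 (vertical) of its mouse, in percent on log axes, with 1 panel per mouse and 1 point per clonotype. Open squares were found in 1 tumor and are drawn at the share of 3 counts in the other library. Points lie along the diagonal in mice 6 and 12, and in the time-separated mice many lie at or near the lower edges.

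Nearly all mid-size clonotypes of the time-matched mice were present on both sides, and the time-separated mice were lower, over a wide range. Those found in both tumors made up 97.8%, 100% and 93.1% of the members in mice 6, 12 and 14. They made up 46.6%, 90.1% and 25.2% in the untreated time-separated mice 4, 17 and 19. In the 0.5 mg/kg DAC mice 3, 11 and 20 they were 67.1%, 64.6% and 62.4%, and in the 2 mg/kg DAC mice 7, 10 and 16 they were 77.6%, 64.0% and 88.2%. All 3 time-matched mice lay above all 9 time-separated mice, although mouse 17 came within a few points of mouse 14. The mean was 97.0% ± 3.53 (SD, n = 3 mice) in the time-matched and 65.1% ± 20.2 (SD, n = 9 mice) in the time-separated mice, a difference of 31.9 percentage points (two-sided exact permutation test, p = 0.0227). Against the 3 untreated time-separated mice alone the difference was 43.0 points, with p = 0.1 by the same exact permutation test, the smallest p that 3 against 3 allows. It was 28.6 points without mouse 19 and 61.1 points without mouse 17.

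The call changed with the lower limit, with the way members were selected and without single time-matched mice. With a lower limit of 0.2% the difference was 21.3 points (exact permutation p = 0.136). When members were selected on tumor 1 alone it was 27.3 points (exact permutation p = 0.0682), and on tumor 2 alone 21.2 points (exact permutation p = 0.0545). It was 31.5 points without mouse 6 and 30.4 points without mouse 12, each with an exact permutation p of 0.0909. After thinning it was 33.8 points.

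The size of the change separated the groups more clearly. For each mouse the median was taken over its members of the absolute log2 ratio of the shares in the 2 tumors, with a count of 0 set to 3 counts. It was 0.44, 0.28 and 1.06 in mice 6, 12 and 14. It was 5.94, 2.26 and 6.47 in mice 4, 17 and 19, then 3.33, 4.44 and 5.06 in mice 3, 11 and 20, and 2.57, 5.31 and 2.52 in mice 7, 10 and 16. No time-separated mouse lay as low as any time-matched mouse. In linear terms the median member of mouse 12 differed 1.21-fold between tumors and that of mouse 19 at least 88.4-fold. The medians of mice 4 and 19 are lower limits, because most of their members were absent from 1 tumor and were given 3 counts there. The mean of the medians was 0.59 ± 0.41 (SD, n = 3 mice) in the time-matched and 4.21 ± 1.59 (SD, n = 9 mice) in the time-separated mice, a difference of 3.61 (two-sided exact permutation test, p = 0.00455, the smallest p that 3 against 9 allows). Thinning reduced the difference to 3.04, and counting only members found in both tumors reduced it to 1.83, with the same exact permutation p in both cases. Against the untreated mice alone it was 4.29 (exact permutation p = 0.1).

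No difference among the untreated and the decitabine-treated time-separated groups passed the test in these measures. The mean percentage found in both tumors was 54.0, 64.7 and 76.6 in the untreated, 0.5 mg/kg and 2 mg/kg DAC groups, a range of 22.6 points (exact permutation test over the 3 groups, p = 0.457). The mean of the median absolute log2 ratios was 4.89, 4.28 and 3.47, a range of 1.42 (exact permutation test over the 3 groups, p = 0.571). Both ranges moved with single mice. Without untreated mouse 17 they were 40.7 points, where the exact permutation p was 0.0107, and 2.74. Without mouse 19 they were 11.9 points and 0.81, and the second was 0.90 without mouse 4 and 2.34 without mouse 10. They moved with the processing too: with members selected on tumor 1 alone they were 11.6 points and 0.19, and the second was 2.50 with 1 count added in place of the floor and 0.79 over members found in both tumors (exact permutation p = 0.0786).

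**Figure D2:**
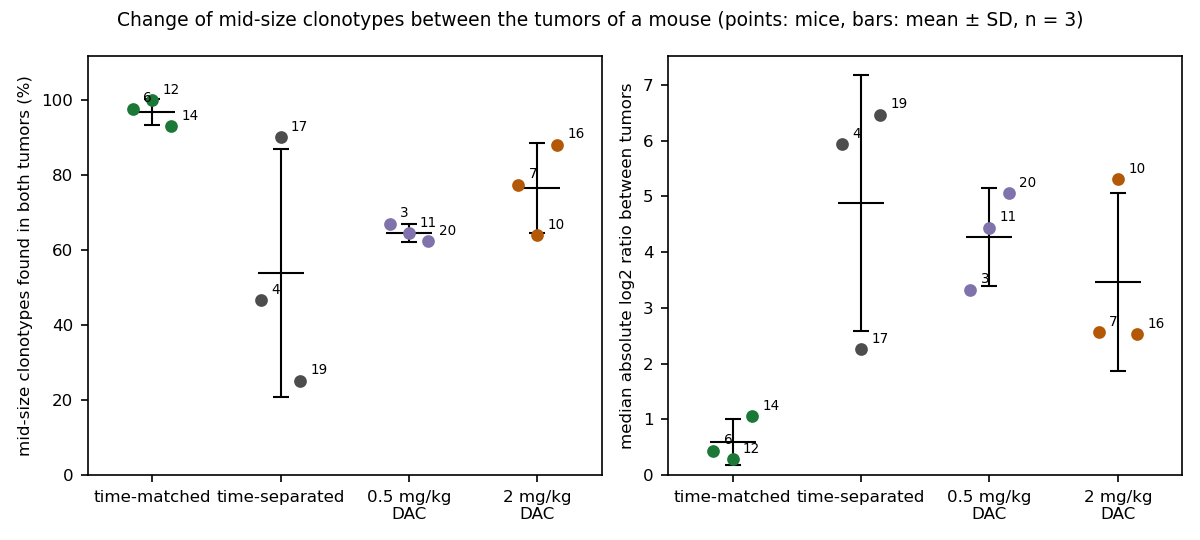
Percentage of mid-size clonotypes found in both tumors (left) and median absolute log2 ratio of their shares between the tumors (right), with 1 numbered point per mouse and bars for the mean ± SD of 3 mice. The time-matched mice lie at 93.1% or above and at 1.06 or below, apart from every time-separated mouse.

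Counted over members, 25 of 97 (25.8%) in the time-matched mice differed more than 2-fold between tumors, against 55.7% of all clonotypes of 0.01% or more in those mice. In the untreated time-separated mice it was 260 of 289 (90.0%), against 92.6% of all. The 0.5 mg/kg DAC mice had 220 of 240 (91.7%) against 94.3%, and the 2 mg/kg DAC mice 144 of 172 (83.7%) against 87.2%. In the time-separated groups the members were thus near the share found in clonotypes of 0.01% or more as a whole. Members found in only 1 tumor were 3 of 97 (3.09%) in the time-matched mice, against 31.8% of all clonotypes of 0.01% or more. They were 148 of 289 (51.2%) against 78.2% in the untreated time-separated mice, 85 of 240 (35.4%) against 77.5% with 0.5 mg/kg DAC and 47 of 172 (27.3%) against 66.9% with 2 mg/kg DAC. The members have larger shares by rule than most of the clonotypes they are read against, so these percentages do not compare clonotypes of equal share.

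The tumor in which a member was smaller held very different amounts of it. In the time-matched mice 64 of 97 members (66.0%) were at 0.1% or more in both tumors. This held for 44 of 289 (15.2%) in the untreated time-separated mice, 32 of 240 (13.3%) with 0.5 mg/kg DAC and 34 of 172 (19.8%) with 2 mg/kg DAC. Many of the others were still detected: 276 of the 798 members had a share of 0.01% to below 0.1% in that tumor, 65 had less, and 283 were not found. Mouse 19 was at one end, with 86 of 115 members in 1 tumor only, and the shares of these in the tumor that held them summed to 18.8%. In that mouse 78 were found only in tumor 1 and 8 only in tumor 2, and tumor 1 was the shallowest library of its group. Mouse 4 leaned the other way, with 15 only in tumor 1 and 40 only in tumor 2.

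**Figure D3:**
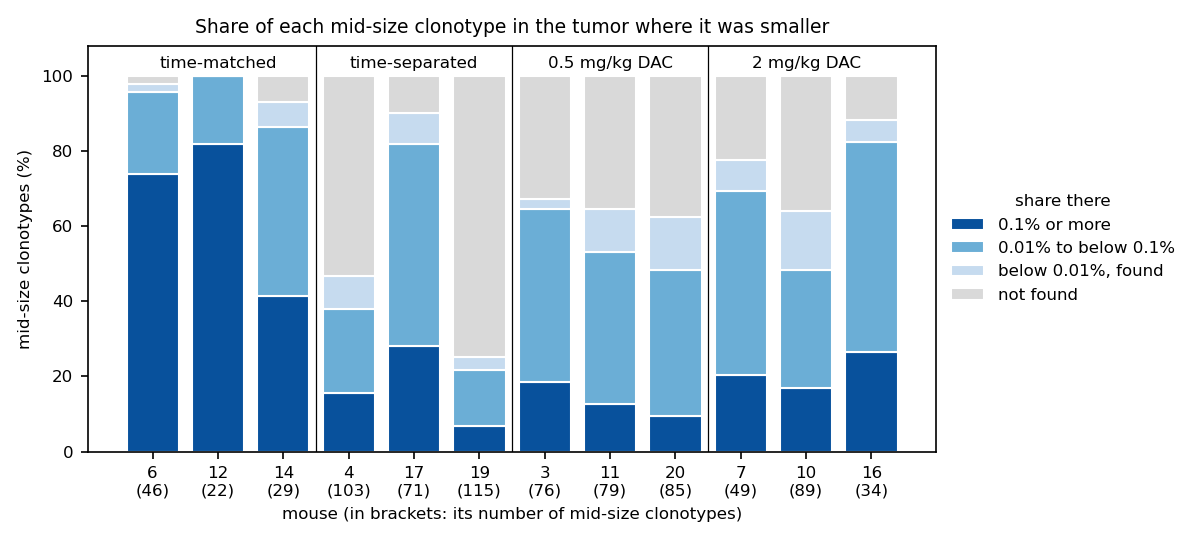
Mid-size clonotypes of each mouse, as a percentage of its members, divided by their share in the tumor where they were smaller. The darkest part, 0.1% or more, covers 41.4% to 81.8% of the members in the time-matched mice and 6.96% to 28.2% in the time-separated mice.

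Mid-size clonotypes changed more than the dominant clonotypes of the same mouse. The median absolute log2 ratio of the dominant clonotypes was 0.20 to 0.34 in the time-matched and 0.60 to 2.69 in the time-separated mice. The members' median was higher than this in 12 of 12 mice, by a mean of 1.83 ± 1.47 (SD, n = 12 mice). The 2 classes were divided by the same shares, so this is a description with no test. On average 96.5% of a mouse's dominant clonotypes and 73.1% of its members were found in both tumors, and absent ones were set to the floor. Counting only clonotypes found in both tumors, the mean difference was 0.51, and the members were not higher in every mouse.

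Single members show the range. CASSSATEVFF (TRBV17 with TRBJ1-1), the largest member of mouse 6, was at 0.404% (95% Clopper-Pearson interval 0.388 to 0.420) in tumor 1 and 0.908% (0.878 to 0.939) in tumor 2. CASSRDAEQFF (TRBV17 with TRBJ2-1), the largest of mouse 12, was at 0.735% and 0.874%, and was found in all 12 mice. Of the 97 time-matched members 6 differed more than 10-fold, 4 of them in mouse 14. Among these was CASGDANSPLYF, the largest member of mouse 14 and the member with the largest ratio among those with 3 or more counts on both sides. It had 5669 counts in tumor 1, a share of 0.941% (0.917 to 0.965), and 5 counts in tumor 2, a share of 0.000819% (0.000266 to 0.00191), a 1149-fold difference between tumors taken on the same day. In the same mouse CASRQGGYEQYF (TRBV3 with TRBJ2-7) was at 0.273% in tumor 1 and was not found in tumor 2, at least 555-fold lower. The most level member of the group, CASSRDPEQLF (TRBV17 with TRBJ2-1, mouse 6), was at 0.138% and 0.139%.

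The time-separated mice held many such clonotypes. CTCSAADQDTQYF (TRBV1 with TRBJ2-5) had 960 counts in tumor 1 of mouse 19, a share of 0.981%, and none among 205823 counts in tumor 2, at least 673-fold lower. The largest member of mouse 3, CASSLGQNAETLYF (TRBV5 with TRBJ2-3), was at 0.942% in tumor 1 and not found in tumor 2, at least 199-fold lower. A TRBV5 with TRBJ1-4 clonotype of 16 residues in mouse 4 had 1078 counts (0.620%) in tumor 1 and 8 counts (0.00472%) in tumor 2. The largest member of mouse 17, TRBV4 with TRBJ2-4 and 15 residues, was at 0.126% and 0.903%, and that of mouse 11, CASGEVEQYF (TRBV13-2 with TRBJ2-7), at 0.0216% and 0.927%, so these 2 were higher in tumor 2. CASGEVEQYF lay 1 base from a dominant clonotype of its mouse. In mouse 20 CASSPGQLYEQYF (TRBV29 with TRBJ2-7) went from 939 counts (0.697%) in tumor 1 to 3 counts (0.00311%) in tumor 2. In mouse 10 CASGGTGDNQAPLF (TRBV13-2 with TRBJ1-5) was at 0.421% in tumor 1 and not found in tumor 2, at least 567-fold lower, while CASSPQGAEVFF (TRBV5 with TRBJ1-1) was at 0.306% and 0.978%. There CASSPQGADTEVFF (TRBV3 with TRBJ1-1) was at 0.457% in tumor 1 and 0.00247% in tumor 2. The largest members of mice 7 and 16 also differed, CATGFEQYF (TRBV29 with TRBJ2-7) 29.6-fold, from 0.922% in tumor 1 to 0.0312%, and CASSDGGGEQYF (TRBV13-1 with TRBJ2-7) 21.2-fold, from 0.0373% to 0.790% in tumor 2.

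Other members were level between tumors taken 11 days apart. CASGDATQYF in mouse 16 was at 0.215% (0.206 to 0.225) and 0.216% (0.202 to 0.231), with overlapping intervals. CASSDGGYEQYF (TRBV13-1 with TRBJ2-7) in mouse 3 was at 0.299% (0.275 to 0.325) and 0.292% (0.252 to 0.338). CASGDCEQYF (TRBV13-2 with TRBJ2-7) in mouse 19 was at 0.121% and 0.119%. The first and last of these lay 1 base from a dominant clonotype of their mouse, which the counts of near neighbors below take up.

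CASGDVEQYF was mid-size in 7 mice and found in 11. It was dominant in mice 7, 11 and 14, at 4.47% and 9.69%, 2.23% and 1.53%, and 2.19% and 1.59% in tumors 1 and 2. As a mid-size clonotype it ranged from 0.946% and 0.814% in mouse 4 to 0.00921% and 0.119% in mouse 6. Mouse 17 held it at 0.264% and 0.107%, mouse 19 at 0.155% and 0.234%, and mouse 3 at 0.0215% and 0.471%. In mouse 19 it lay 1 base from a dominant clonotype. It was higher in tumor 1 in mice 16 and 20, at 0.242% and 0.0650%, and at 0.286% and 0.0913%. The receptor was thus present in both tumors of all 7 mice, higher in tumor 1 in 4 of them and in tumor 2 in the other 3, from 1.16-fold to 21.9-fold.

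The receptor with 5 nucleotide forms, TRBV19 with TRBJ2-1 and 15 residues, was mid-size in 5 mice and found in no others. It was chosen for description after its values had been seen, as were the related receptor and the set below. In time-matched mouse 6 it was at 0.184% and 0.285%. In mouse 10 it was at 0.0289% in tumor 1 and 0.264% in tumor 2. In mice 3, 11 and 19 it was not found in tumor 1 and was at 0.231%, 0.427% and 0.130% in tumor 2. The related receptor, found in 7 mice and mid-size in 4, was level in mouse 12 at 0.244% and 0.236%. It was at 0.0734% and 0.188% in mouse 17, and in mice 11 and 20 it was not found in tumor 1 and was at 0.842% and 0.962% in tumor 2.

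All 21 members with TRBV19, TRBJ2-1 and a CDR3 of 15 residues were then described, from 9 mice, of which 16 lay within 2 residues of 1 of these 2 receptors. In the time-separated mice 18 of 19 were higher in tumor 2 than in tumor 1, each by more than 2-fold, in 7 mice, and 8 of the 18 were found only in tumor 2. Of all 701 members of those mice 274 (39.1%) were higher in tumor 2, and of the 48 other TRBV19 members 11 (22.9%) were. The exception was in mouse 17, a clonotype that differed from both receptors at 4 or more residues. A member of mouse 4 differed from them as much and was found only in tumor 2. Mouse 3 held 6 of the set, 3 of them 1 base from a dominant clonotype of the same kind, and leaving these out gave 15 of 16. The 3 dominant clonotypes with the same segments and length were higher in tumor 2 in 2 mice and in tumor 1 in the other mouse, and in the time-matched mice 1 of 2 members was higher in tumor 2. The set was picked for this pattern, so it carries no test, and the order in which tumors 1 and 2 were taken is not in the labels.

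Members used 19 TRBV and 12 TRBJ segments, all in RefSeq's list of the TCRβ locus on chromosome 6, where TRBV29 is listed as a pseudogene in the reference strain. The leading V segments were TRBV13-1 (96 members), TRBV5 (93), TRBV13-2 (92) and TRBV17 (82), and the leading J segments were TRBJ2-7 (190) and TRBJ2-1 (131). Every mouse used these 6. TRBV13-1, TRBV13-2 and TRBV13-3 belong to a single subgroup of segments with similar sequences.

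Usage was set against the small clonotypes of the same mouse, with each clonotype counted once whatever its share. Of 34 segments tested 2 (5.88%) passed an adjusted p of 0.05, TRBV13-3 and TRBV12-2, and only the first is read as a difference. TRBV13-3 made up 5.28% ± 3.26 of mid-size and 9.22% ± 1.87 of small clonotypes (SD, n = 12 mice), lower in each of the 12 (adjusted p = 0.0166 by an exact sign-flip permutation test). TRBV12-2 held no member and 0.226% ± 0.153 of the small clonotypes (SD, n = 12 mice), with 30 clonotypes in all (exact sign-flip permutation test, adjusted p = 0.0332). At that usage a mouse with so few members is likely to hold none, so lower was the only direction its test could take, and it is not read as a difference. Neither passed when the small clonotypes started at 0.03%, where no TRBV segment passed. Of the segments that did not pass, TRBV17 was at 12.2% against 7.98%. Among J segments TRBJ2-2 was at 3.46% against 5.88%, lower in 10 of the 12 (adjusted p = 0.0531 by an exact sign-flip permutation test), and TRBJ2-4 was at 6.97% against 9.86%. TRBJ2-1, at 17.0% against 12.9%, and TRBJ2-7, at 22.6% against 18.9%, lay the other way.

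Between time-matched and time-separated mice 0 of 27 segments (0%) passed after adjustment in the exact permutation tests, and 7 had an unadjusted p under 0.05. TRBV13-1 made up 17.4%, 36.4% and 17.2% of the members in mice 6, 12 and 14, and 5.62% to 14.1% in the 9 time-separated mice, so the groups did not overlap (exact permutation test, adjusted p = 0.0614). TRBV13-3 made up 2.17% in mouse 6 and none in mice 12 and 14, and 3.37% to 9.86% in the time-separated mice, again without overlap (exact permutation test, adjusted p = 0.0614). TRBV19 was at 2.24% ± 2.27 (SD, n = 3 mice) against 9.72% ± 3.70 (SD, n = 9 mice), with an adjusted exact permutation p of 0.0818. Its groups did not overlap either, at 0% to 4.55% against 5.83% to 16.3%. The groups overlapped for every other segment of the 27. The others of the 7 were TRBV17 at 20.7% against 9.38%, TRBJ2-7 at 15.0% against 25.2%, TRBJ1-4 at 4.84% against 8.38% and TRBJ1-3 at 1.87% against 4.82%. TRBJ2-5, at 20.0% against 10.3%, was not among them. With 22 to 46 members, 1 clonotype was worth over 2 percentage points of usage in a time-matched mouse. When TRBV and TRBJ were adjusted separately, 3 TRBV segments passed.

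**Figure D4:**
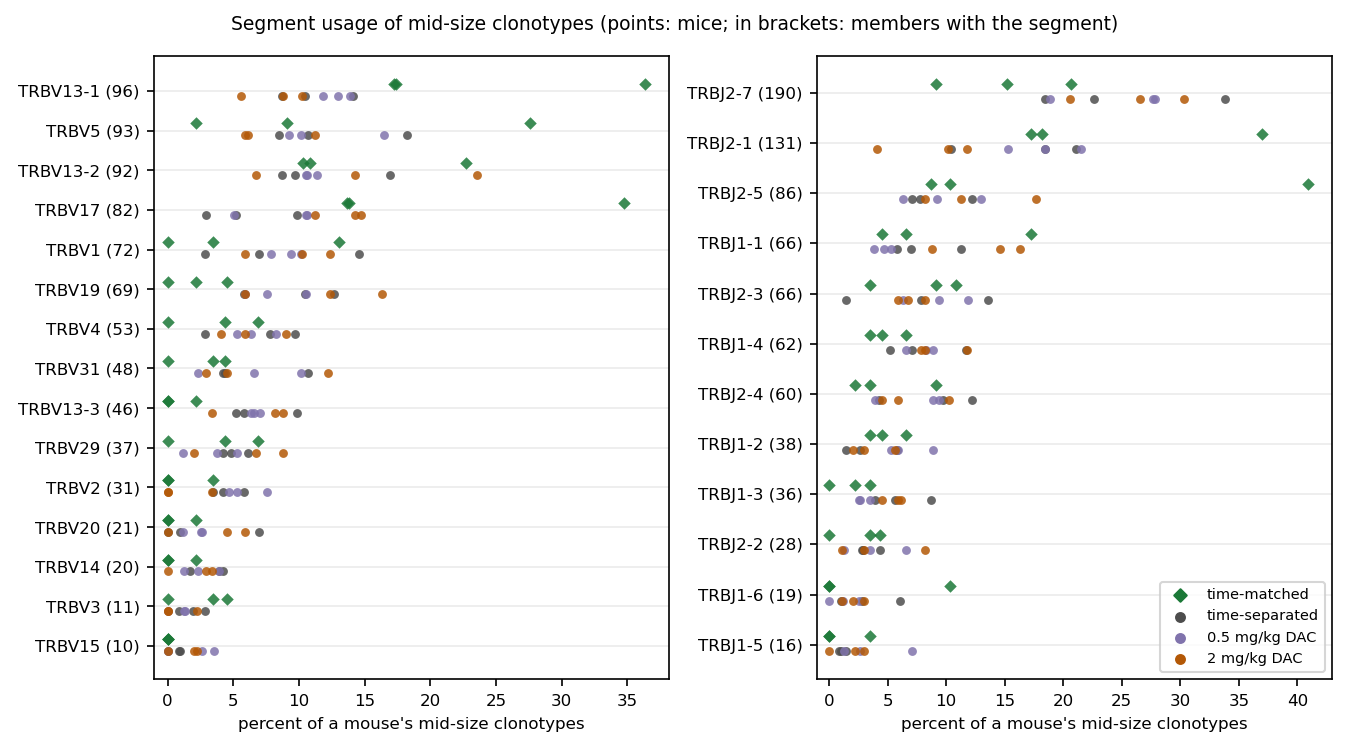
Percentage of a mouse's mid-size clonotypes that used each TRBV (left) or TRBJ (right) segment held by 10 or more members, with 1 point per mouse, diamonds for time-matched mice and circles for the 9 time-separated mice. The diamonds lie to the right of all circles for TRBV13-1 and to the left of all circles for TRBV13-3 and TRBV19.

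CDR3 loops of the members had 9 to 19 residues, most often 14 (216 members) or 15 (201 members). The mean was 13.7 ± 0.421 residues for mid-size and 13.9 ± 0.137 for small clonotypes (SD, n = 12 mice), a mean difference of -0.190 that did not pass the test (exact sign-flip permutation test, p = 0.0728). The joint inside the loop was shorter, by the count of bases between the shared V and J stretches. It averaged 10.6 ± 0.737 bases in mid-size and 11.9 ± 0.731 in small clonotypes (SD, n = 12 mice), shorter in 12 of 12 mice with a mean difference of -1.31 bases (exact sign-flip permutation test, p = 0.000488, the smallest p that 12 pairs allow). A single altered base in the V or J stretch lengthens this count, and 1477 of the small clonotypes (13.3%) lay within 1 base of a dominant clonotype of their mouse, or matched it with another V or J segment. With those and their 57 mid-size counterparts left out, the difference was -0.498 bases (exact sign-flip permutation test, p = 0.00830).

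Members were also found in other mice more often than small clonotypes were. In all, 219 of 798 (27.4%) were found in a library of at least 1 other mouse, and 38 of these were dominant there. By mouse, the percentage was 28.5 ± 6.47 for mid-size and 15.5 ± 3.57 for small clonotypes (SD, n = 12 mice), higher in all 12 by 13.0 points (p = 0.000488 by an exact sign-flip permutation test). Mouse 6 was highest at 43.5% and mouse 11 lowest at 20.3%. Of the 219, 107 had the same main nucleotide sequence in another mouse, as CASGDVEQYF did. The difference was 7.10 points when the small clonotypes started at 0.03% and 27.7 points when single counts were kept. With a receptor counted as shared only where another mouse held it with another main nucleotide sequence, a measure chosen after the data were seen, the difference was 10.2 points. The values are per amino acid receptor, and any transfer of molecules between libraries was not tested. In all, 30 receptors were mid-size in 2 or more mice and 6 in 3 or more. Besides the 3 already described these were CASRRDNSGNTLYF (TRBV13-3 with TRBJ1-3, 5 mice), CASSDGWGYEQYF (TRBV13-3 with TRBJ2-7, 3 mice) and a TRBV13-1 with TRBJ2-5 receptor of 16 residues found in 7 mice.

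**Figure D5:**
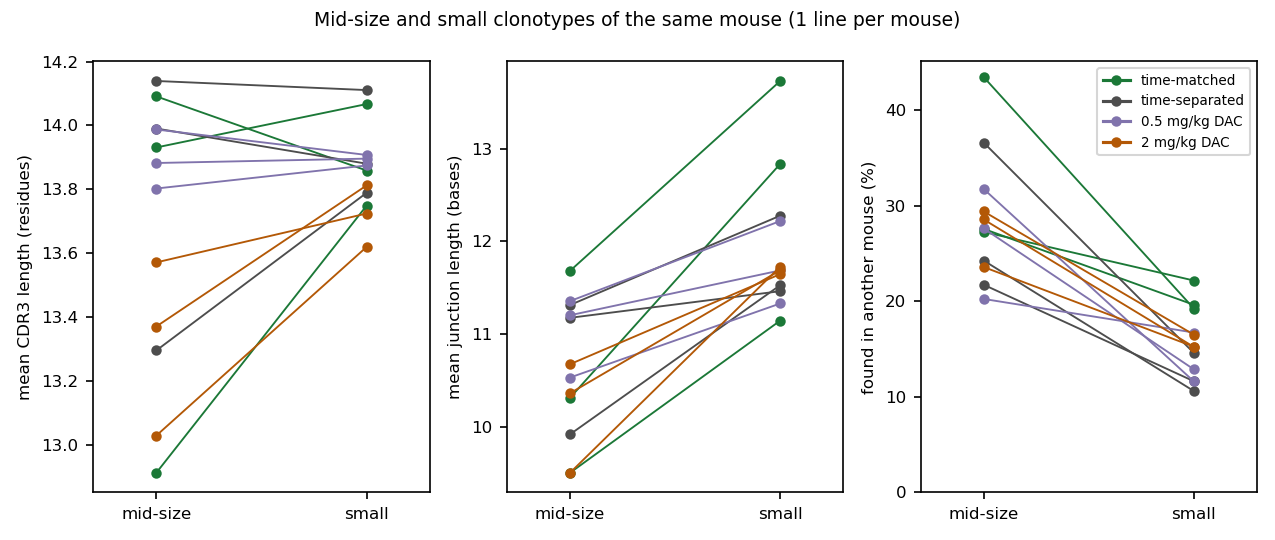
Mean CDR3 length in residues (left), mean junction length in bases (center) and percentage found in another mouse (right) for mid-size and small clonotypes, with 1 line per mouse colored by group. Length moves either way, while every line rises for the junction and falls for the percentage found elsewhere.

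Some members lay very close in sequence to a dominant clone. In 57 of 798 members the main nucleotide CDR3 was close to that of a dominant clonotype of the same mouse. It lay 1 base away with the same V and J segments, or matched it with another V or J segment. All 57 were found in both tumors. They made up 10 of 46 members in mouse 6 and 12 of 76 in mouse 3, and none of 103 in mouse 4. Whether these arose from copying errors in the dominant sequence was not tested. Without them the difference between time-separated and time-matched mice in the median absolute log2 ratio was 3.68, and in the percentage found in both tumors 33.8 points.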

How the data were processed

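RNA from the 24 whole tumors was sequenced for TCRβ by a method with unique molecular identifiers. The authors deposited tables of read counts per receptor sequence, made with the Cogent NGS Immune Profiler, whose steps included an analysis of the molecular identifiers and clonotype calling, and the counts are neither normalized nor filtered. The count column and the methods name the unit reads, and whether it counts reads or molecules is not given in the sources used here, nor is the genome build. TCRα tables were not used.

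From these, sequences marked as containing a stop codon (6.78% to 9.65% of the counts of a library) and those seen with a single count were removed, so that at least 2 counts were needed, and counts were summed by CDR3 amino acid sequence, V and J segment. Groups came from the sample titles. Differences between groups were tested by exact permutation of 1 value per mouse, and mid-size against small clonotypes by exact sign-flip permutation over the 12 mice, both two-sided, with Benjamini-Hochberg adjustment over all TRBV and TRBJ segments held by 10 or more clonotypes. Nothing in the labels states a batch.

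Shared V and J stretches were the positions where 1 base was held by at least 50% of the clonotypes of 0.01% or more with that segment. Segment names were matched to RefSeq, and all 31 matched. The statistics were tested on simulated data. The members and lists were chosen with earlier results of these data known. Clonotypes named were the largest member of each mouse and, per group, the member with the largest ratio (3 or more counts on both sides), the smallest ratio and the highest share in 1 tumor only, with those at the limits and the one mid-size in the most mice. Segments named were the 3 with the largest difference each way and those past a threshold. CDR3 names over 14 residues are not spelled out.

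Alternatives changed the depth, minimum count, clonotype definition, share limits, denominator, the way members were selected, the floor, the weighting and adjustment of segments, and the set of mice. Python 3.11.15, numpy 2.4.6, pandas 2.3.3, scipy 1.17.1 and matplotlib 3.10.9 were used, with seed 20 for thinning.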

Additional observations from a re-analysis of the deposited data

Results flagged for a closer look

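Tumor 1 of untreated time-separated mouse 19 stood apart in depth. It held 97815 retained counts, farther below the other 5 libraries of its group than a test for a single outlying value allows. Chance marks about 1 in 20 groups of this size. The same test was run in each of the 4 groups for retained counts, both summed shares (members and dominant clonotypes) and the number of members found. Nothing else was marked, and with that many tests a single mark can arise by chance. The same tumor held 107 of the 115 members of its mouse. Without mouse 19 the difference between time-matched and time-separated mice was 26.9 points in the percentage of members found in both tumors and 3.33 in the median absolute log2 ratio.

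The change between tumors differed between the time-matched and the 9 pooled time-separated mice in both measures, by the exact permutation tests given above. The differences were 31.9 percentage points in members found in both tumors and 3.61 in the median absolute log2 ratio. Both were in the same direction after thinning to equal retained counts, at 33.8 points and 3.04. All of the pooled mice but the untreated 3 had been given decitabine. Against those 3 alone the exact permutation p was 0.1 in both measures.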

How the results depend on the processing

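The difference in the median absolute log2 ratio between time-separated and time-matched mice passed the exact permutation test under all 14 alternatives other than leaving out a mouse, from 1.83 (members found in both tumors) to 3.98 (mice with 90000 or more counts in both libraries), and without each of the 12 mice, from 3.33 to 3.86. The difference in members found in both tumors passed under 9 of 12. It did not with a lower limit of 0.2% (21.3 points, exact permutation p = 0.136), or with members selected on tumor 1 alone (27.3 points) or tumor 2 alone (21.2 points), and without single mice it ran from 26.9 to 35.0 points. The range over the 3 time-separated groups ran from 11.9 to 40.7 points without single mice.

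The count of TRBV segments that passed against small clonotypes was 2, and the TRBJ count 0. TRBV12-2, which passed, and TRBV12-1, TRBV24 and TRBV8, which did not, held no member. Lower was thus the only direction the tests of these segments could take. Such segments can enter the higher TRBV counts below, which are not read as more differences. The TRBV count was 1 after thinning, 5 with at least 5 counts per sequence, 1 with the 0.2% limit, 4 with TRBV and TRBJ adjusted separately, 0 with small clonotypes from 0.03% and 5 with clonotypes close to a dominant one left out of both classes. Without single mice it ran from 1 to 5, and the TRBJ count from 0 to 1. The TRBJ count was 1 with at least 5 counts, the 0.2% limit, usage by counts, or those close clonotypes left out. Between groups 3 TRBV segments passed when adjusted separately from TRBJ. The difference in CDR3 length passed with the 0.2% limit (-0.293 residues, exact permutation p = 0.00781) and with an upper limit of 2% (-0.203, exact permutation p = 0.0435), and without single mice it ran from -0.229 to -0.132, passing without mouse 12 (exact permutation p = 0.0352). The cause of these moves was not tested.

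The difference in junction length passed under all 9 alternatives, from -1.79 to -0.498 bases. That in members found in another mouse passed under all 10, from 7.10 points (small clonotypes from 0.03%) to 27.7 points (single counts kept). Leaving out close small clonotypes, the mice with under 90000 counts in a library, and shared nucleotide sequences were alternatives chosen after seeing the data. No paired analysis was possible between groups, because the groups share no replicate numbers; the comparisons within mice were paired by the mouse. Another out-of-frame filter was not run, since every mark in the tables is in the stop codon field. Depth limits what can be said of clonotypes listed at 0, with a limit of 3 counts, or 0.00474% in the shallowest library.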
